A study of Mus musculus with 9 samples.

Results

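The genes described here are 48 protein-coding genes of glutathione and NRF2-linked antioxidant defence, out of 52636 genes counted in mouse kidney. They were chosen by name: the 22 cytosolic and mitochondrial glutathione transferase genes of the classes Gsta, Gstk, Gstm, Gsto, Gstp, Gstt and Gstz, the 3 microsomal Mgst genes, and 23 genes for glutathione synthesis, the thioredoxin system, peroxide and superoxide removal, NRF2 and its targets. No measured value entered the choice of name patterns, although the list was drawn up with earlier results of these libraries known. RNA sequencing gave 9 libraries: 3 from kidneys of NF-κB1 C59A knock-in mice, 3 from NF-κB1 C59S knock-in mice and 3 from wild-type (WT) mice. Both knock-ins change 1 and the same cysteine codon in Nfkb1, which encodes the p50 subunit of NF-κB, and a PGK-neo selection cassette lies in a nearby intron. Both alleles were built in an ES cell line derived from C57BL/6NTac. By the labels, signalling is activated in C59A and inactivated in C59S, whereas their account of DNA binding runs in the reverse order, so no direction of NF-κB activity is assumed here. Age, sex, litter and batch are not given, nor is it stated that the replicates came from separate animals, so the p-values cover only the spread among libraries, some or all of which may be technical.

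NRF2, encoded by Nfe2l2, is a transcription factor that KEAP1 holds at a low level by delivering it for degradation. Oxidants and electrophiles modify KEAP1, NRF2 then accumulates, pairs with small MAF proteins and binds antioxidant response elements in front of genes for glutathione synthesis, quinone reduction, heme breakdown and thioredoxin reduction. Glutathione transferases attach glutathione to reactive compounds, and glutathione peroxidases use it to reduce peroxides. The kidney's proximal tubule has a high turnover of glutathione and is the main source of the plasma peroxidase GPX3.

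Library totals lay between 16367403 counts (C59A replicate 1) and 25787659 counts (C59S replicate 1), and the 48 genes took 3.76% ± 1.00 of counts in C59A, 4.16% ± 0.617 in C59S and 4.29% ± 0.624 in WT (SD, n = 3 each). Nfkb1 itself was not called (log2 fold change -0.04 in C59A and 0.15 in C59S against WT, edgeR adjusted p = 0.896 and 0.567), and a count cannot show a changed codon. The C59A libraries carried reads of Y-linked genes and almost none of Xist, whereas those of C59S and WT carried Xist, and all 8 genes of a list known for male-biased kidney expression were higher in C59A than in WT. The knock-in C59A and the presence of Y-linked reads therefore cannot be told apart in any comparison below that involves C59A. Summed proximal tubule markers (8 genes) ran from 12313 to 17355 CPM (counts per 1e+06 of the scaled library total) in C59A, from 11747 to 16160 CPM in C59S and from 17974 to 19726 CPM in WT. In bulk tissue, fewer cells of a type and less RNA per cell cannot be told apart. Summed adipocyte markers (6 genes) were 46.4, 1.25 and 137 CPM in C59A, 3.76, 299.8 and 626 CPM in C59S and below 1.1 CPM in WT, and C59S replicate 2 also held 10.9 CPM of the adrenal enzyme gene Cyp11b1, which was at 0 in all other libraries. Neutrophil markers summed to 14.0 to 17.0 CPM in C59A, 4.58 to 8.63 CPM in C59S and 2.61 to 4.14 CPM in WT, with 3 of the 6 called higher in C59A against WT and the defining marker Ly6g at 0.113 CPM or less in C59A, and their part in the results was not tested. Mitochondrial transcripts took 40.6% of the counts in C59S replicate 3, and in C59A they took 24.9% ± 4.00, against 18.2% ± 1.65 in WT (SD, n = 3 each).

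Because NRF2 acts through a short element, the 250 bases before the start are given for some of the genes higher in C59A than in WT. They are from RefSeq on GRCm38.p6, on the strand of the gene, with the antioxidant response element (TGACNNNGC, searched on both strands) in capitals. The first 4 genes carried a match and were higher in C59A, while Nqo1, also higher, had none in these bases. Gss, higher as well but not printed, had none either.

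Gclm, chr3:122245307-122245556, plus strand: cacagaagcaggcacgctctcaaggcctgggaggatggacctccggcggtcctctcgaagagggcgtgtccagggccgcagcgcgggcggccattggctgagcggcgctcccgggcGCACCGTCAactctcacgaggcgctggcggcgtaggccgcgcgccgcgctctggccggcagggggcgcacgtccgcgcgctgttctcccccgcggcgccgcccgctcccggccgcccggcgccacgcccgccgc
Txnrd1, chr10:82858956-82859205, plus strand: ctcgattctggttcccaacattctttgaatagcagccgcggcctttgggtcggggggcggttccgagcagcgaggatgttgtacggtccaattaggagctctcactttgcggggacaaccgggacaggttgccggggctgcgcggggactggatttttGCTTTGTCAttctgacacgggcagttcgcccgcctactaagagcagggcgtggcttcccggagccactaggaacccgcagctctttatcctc
Sod1, chr16:90220512-90220761, plus strand: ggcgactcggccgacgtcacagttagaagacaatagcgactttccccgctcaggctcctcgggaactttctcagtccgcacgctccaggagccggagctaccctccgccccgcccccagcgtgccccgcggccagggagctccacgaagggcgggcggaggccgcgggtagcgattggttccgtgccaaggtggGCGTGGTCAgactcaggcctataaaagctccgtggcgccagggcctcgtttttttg
G6pdx, chrX:74428881-74429130, minus strand: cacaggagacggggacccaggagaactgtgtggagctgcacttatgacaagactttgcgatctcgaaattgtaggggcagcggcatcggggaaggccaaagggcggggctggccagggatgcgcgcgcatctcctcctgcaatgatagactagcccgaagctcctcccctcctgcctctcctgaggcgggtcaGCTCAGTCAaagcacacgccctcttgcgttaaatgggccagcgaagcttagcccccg
Nqo1, chr8:107403206-107403455, minus strand: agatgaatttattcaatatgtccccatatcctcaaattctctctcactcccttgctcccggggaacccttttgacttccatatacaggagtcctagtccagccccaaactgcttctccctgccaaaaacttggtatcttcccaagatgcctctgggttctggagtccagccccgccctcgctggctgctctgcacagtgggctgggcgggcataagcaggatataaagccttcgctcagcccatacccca

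In all 4 matches the element read on the opposite strand to the gene, so that the capitals show its reverse complement. The first of the printed capitals lay at position -134 from the start in Gclm, -92 in Txnrd1, -56 in Sod1 and -57 in G6pdx. Txnrd1 has 3 RefSeq starts, and the match lay before 1 of them. RefSeq promoters were matched for 41 of the 48 genes. Hmox1, with the largest rise of the called genes, and Gsta4, with the largest fall, were not among them. Motifs were counted in a window from 250 bases before to 50 bases after the start, which is longer than the stretches printed above. In that window 11 of these genes (26.8%) held the element, against 3781 of 27025 genes in all (14.0%). A kappaB motif, searched on both strands, lay in the same window of 5 of the 41 genes (12.2%), against 9.55% of all genes. The element of Srxn1 (position 29) and the kappaB motif of Gpx3 (position 1) began after the start. Of the genes higher in C59A than in WT 4 of the 6 with a promoter held the antioxidant element in this window, of those lower 0 of 2, and of those that did not pass 7 of 30. Most of those 4 calls were not firm. Sod1 and G6pdx lost theirs when any 1 of the 9 libraries was left out, and Txnrd1 in 7 of those 9 cases. A match is a run of letters and not a measured binding site.

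In the kidney as a whole these genes spanned a wide range of levels. By mean FPKM over the 9 libraries (reads per length and library depth, as deposited), 13 genes lay at 100 or above, 20 from 10 to 100, 11 from 1 to 10 and 4 below 1. Gpx3, the secreted plasma peroxidase, led with 17114 ± 6166 FPKM in C59A, 19795 ± 4197 in C59S and 16998 ± 2905 in WT (SD, n = 3 each). It was followed by Sod1, the cytosolic superoxide dismutase, with a mean of 1044 FPKM over all libraries, then Gpx1 with 602, Gpx4 with 384 and Txn1 with 319. At the other end Slc7a11, the cystine importer, had 0 to 7 reads per library and FPKM means of 0.00932 in C59A, 0.0104 in C59S and 0.0071 in WT. Slc7a11, Gstm3 and Gstt4 did not pass the filter on low counts, so 45 genes were tested.

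In C59A against WT, 7 of the 45 genes were higher and 3 were lower, where 3.24% and 2.46% of all genes were. The 10 genes are 22.2% of those tested, and the same rule called 5.7% of all 17114 genes tested. Higher in C59A were Hmox1, Nqo1, Gclm, Gss, Txnrd1, Sod1 and G6pdx, and lower were the glutathione transferase genes Gsta4, Gsta1 and Gsto1. The median log2 fold change was 0.26 over the 45 genes and -0.02 over all genes. The 3 C59A libraries lay wholly above the 3 WT libraries for 15 genes and wholly below for 5, where 12.6% and 12% of all genes did so (24.6% in either direction). The plot of levels by library shows the 10 genes with NRF2 and KEAP1.

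**Figure D1:**
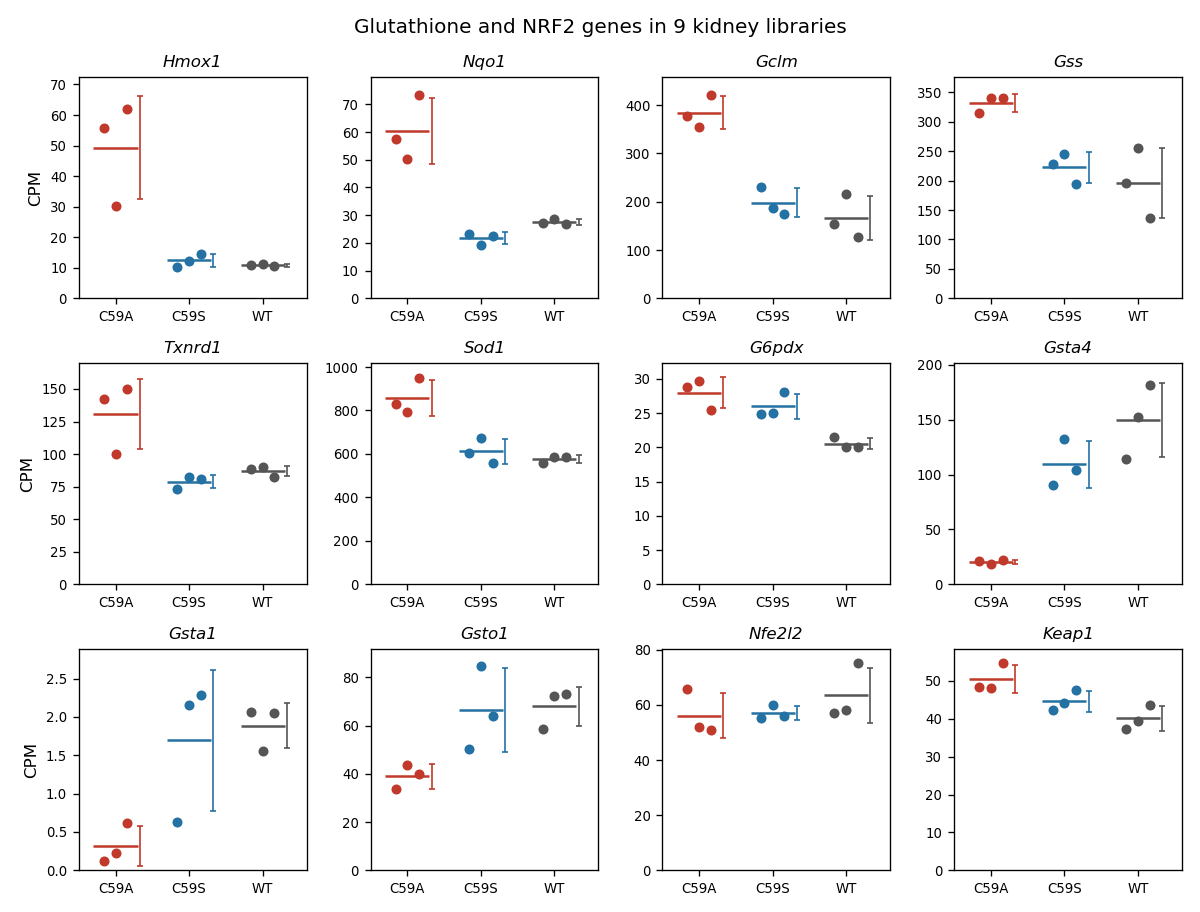
CPM (counts per 1e+06 of the scaled library total, vertical axes from 0) of 12 genes in each of 9 kidney libraries, with C59A, C59S and WT from left to right. Points are libraries, horizontal lines are means of 3 and bars are 1 SD. The C59A points stand apart from the WT points in the first 10 panels, and not for Nfe2l2.

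Neither of the 2 regulators was called. Nfe2l2 had 65.6, 52.1 and 50.8 CPM in C59A, 55.1, 59.9 and 55.9 CPM in C59S and 57.0, 58.3 and 75.0 CPM in WT. The 3 groups overlapped, and its log2 fold changes were -0.18 ± 0.14 (SE) in C59A and -0.16 ± 0.14 in C59S against WT (edgeR adjusted p = 0.524 and 0.591). NRF2 is governed largely at the level of the protein, which was not measured here. Keap1, its inhibitor, had 48.4, 48.2 and 54.7 CPM in C59A, 42.2, 44.0 and 47.7 CPM in C59S and 37.3, 39.4 and 43.6 CPM in WT. All C59A libraries lay above those of WT, but the difference of 0.33 ± 0.11 did not pass (adjusted p = 0.114).

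Hmox1, heme oxygenase, which opens the heme ring and releases iron and biliverdin (chromosome 8, 75093621 to 75100589), showed the largest rise of the called genes. It had 55.7, 30.2 and 62.0 CPM in C59A, 10.2, 12.3 and 14.6 CPM in C59S and 10.8, 11.3 and 10.4 CPM in WT. Every C59A library stood well above the other 6, with replicate 2 the lowest of the 3, and C59S overlapped WT. The log2 fold change was 2.18 ± 0.24 (SE, 95% interval 1.65 to 2.72) against WT, which is 4.54-fold (edgeR adjusted p = 0.000664), and 2.00 ± 0.24 against C59S (adjusted p = 0.00115). Macrophages, which break down heme, are a further place of Hmox1 expression. Their 8 markers summed to 166, 237 and 128 CPM in C59A, 187, 228 and 210.4 CPM in C59S and 140, 156 and 144 CPM in WT, and none of the 8 was called. The 5 erythroid markers, at 406, 514 and 296 CPM in C59A and 397, 143 and 383 CPM in WT, were not called either. The part of macrophages and of erythroid cells in the Hmox1 result was not tested.

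Nqo1, the quinone reductase often used as a readout of NRF2 (chromosome 8, 107388225 to 107403206), had 57.7, 50.2 and 73.3 CPM in C59A, 23.4, 19.2 and 22.6 CPM in C59S and 27.3, 28.8 and 26.8 CPM in WT. C59A was above and C59S below WT, with no overlap on either side. The rise in C59A was 1.13 ± 0.15 on the log2 scale, or 2.19-fold, against WT (edgeR adjusted p = 0.00125) and 1.47 ± 0.15 against C59S (adjusted p = 0.000217). The C59S value against WT, -0.35 ± 0.15, did not pass (adjusted p = 0.243). The remaining detoxifying enzymes of this group, Ephx1 (epoxide hydrolase) and Cbr3 (a carbonyl reductase), had log2 fold changes of -0.19 and 0.08 in C59A against WT and did not pass.

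Among the genes of glutathione synthesis and recycling, 3 of the 5 tested were higher in C59A than in WT and none was lower. Of all genes 3.24% were higher and 2.46% lower. All 5 had a positive log2 fold change. Gclm, the regulatory subunit of glutamate-cysteine ligase, which catalyses the first step of glutathione synthesis, had 378, 354 and 421 CPM in C59A, 232, 187 and 174 CPM in C59S and 154, 216 and 127 CPM in WT. The C59A libraries all lay above the others, while C59S and WT overlapped. The log2 fold change was 1.21 ± 0.20 (2.32-fold) against WT, with edgeR adjusted p = 0.00449. Gclm lies 13.3 Mb from Nfkb1 on chromosome 3, the chromosome that carries the knock-in alleles. Its partner Gclc, the catalytic subunit, had 424, 300.4 and 385 CPM in C59A, 459, 183 and 179 CPM in C59S and 403, 239 and 144 CPM in WT. Gclc thus varied more within C59S and WT than between genotypes, and its 0.50 ± 0.45 did not pass (adjusted p = 0.584).

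Gss, glutathione synthetase, had 314, 341 and 341 CPM in C59A, 228, 246 and 194 CPM in C59S and 197, 256 and 136 CPM in WT. C59A did not overlap WT, but the rise of 0.76 ± 0.20 was called with little margin (edgeR adjusted p = 0.0498). Gss overlaps Acss2 on the opposite strand over 22544 bases, and Acss2 was also higher in C59A (0.84 ± 0.14). The strand setting of the counting is not given, so reads of the 2 genes may have been shared. G6pdx, the X-linked glucose-6-phosphate dehydrogenase that supplies NADPH, had 28.9, 29.7 and 25.4 CPM in C59A, 24.9, 25.0 and 28.0 CPM in C59S and 21.5, 20.0 and 20.1 CPM in WT. Both knock-ins lay above WT without overlap, by 0.44 ± 0.11 in C59A (adjusted p = 0.0429) and 0.34 ± 0.11 in C59S, which did not pass (adjusted p = 0.183). G6pdx shares 19712 bases with Ikbkg on the opposite strand, a gene of the IKK complex whose own log2 fold change in C59A was 0.00. Gsr, which reduces oxidised glutathione, differed by 0.36 ± 0.19 in C59A and did not pass.

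In the thioredoxin and peroxiredoxin system 1 of 5 genes was called in C59A against WT, beside 5.7% of all genes. All 5 had positive log2 fold changes between 0.35 and 0.59 there, each with an unadjusted p under 0.05, which 21% of all genes reached. Txnrd1, thioredoxin reductase, had 142, 100.3 and 150 CPM in C59A, 73.0, 82.5 and 81.0 CPM in C59S and 88.9, 89.8 and 82.5 CPM in WT. All C59A libraries were above all of the others, and replicate 2 was the closest to WT. Its rise was 0.59 ± 0.15 against WT (edgeR adjusted p = 0.0417) and 0.73 ± 0.15 against C59S (adjusted p = 0.0172). Txn1, thioredoxin itself, had 360, 348 and 534 CPM in C59A, 282, 358 and 284 CPM in C59S and 299, 306 and 281 CPM in WT, and its 0.49 ± 0.18 did not pass (adjusted p = 0.153). The peroxiredoxin genes Prdx1 and Prdx6 and the sulfiredoxin gene Srxn1 did not pass.

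Of catalase, the superoxide dismutases and the glutathione peroxidases, Sod1 alone of the 6 genes was called in C59A against WT, where 5.7% of all genes were. It had 829, 793 and 949 CPM in C59A, 602, 675 and 560 CPM in C59S and 557, 587 and 587 CPM in WT, a rise of 0.57 ± 0.15 in C59A over WT (edgeR adjusted p = 0.0466). Gpx4, which reduces lipid peroxides in membranes, was separated in the same way with 763, 799 and 912 CPM in C59A, 539, 720 and 636 CPM in C59S and 536, 517 and 608 CPM in WT. Its 0.58 ± 0.16 missed the threshold (adjusted p = 0.0621), and DESeq2 called it (0.00252). Gpx3, the most abundant transcript of the 48, had 29629, 21222 and 42803 CPM in C59A, 28336, 37116 and 43145 CPM in C59S and 26066, 31426 and 36631 CPM in WT, with full overlap and a log2 fold change of -0.01 ± 0.32 (95% interval -0.71 to 0.69). Gpx1, the cytosolic peroxidase, had 1017, 665 and 1266 CPM in C59A, 379, 1098 and 747 CPM in C59S and 646, 949 and 1128 CPM in WT, again with full overlap.

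Glutathione transferases went the other way where they were called: of 20 tested, 3 were lower in C59A than in WT and none was higher. Of all genes 2.46% were lower and 3.24% higher. Gsta4, the alpha-class enzyme known for conjugating the lipid peroxidation product 4-hydroxynonenal (chromosome 9, 78182774 to 78209349), had 20.9, 18.7 and 22.4 CPM in C59A, 90.6, 133 and 104 CPM in C59S and 114, 153 and 182 CPM in WT. The C59A libraries were tightly grouped far below the rest. The log2 fold change was -2.86 ± 0.20 (95% interval -3.29 to -2.43), which is 7.24-fold lower (edgeR adjusted p = 1.85e-05), and -2.40 ± 0.19 against C59S (adjusted p = 6.08e-05). Per length, Gsta4 stood at 16.2 ± 1.61 FPKM in C59A, 85.6 ± 17.3 in C59S and 116 ± 26.6 in WT (SD, n = 3 each). Summed markers of the late proximal tubule (S3, 5 genes) moved in the opposite direction, with 6719 to 6955 CPM in C59A and 2367 to 4025 CPM in WT. Of the 5 genes 3 were called higher. Slc7a13, among those called (494 CPM in C59A, 1.73 in WT), also stands on the male-biased list. Slc27a2, which made up most of the sum, did not pass (edgeR adjusted p = 0.0636). Slc22a7 went the other way (-0.29) without passing. The part of these markers in the Gsta4 result was not tested.

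Gsta1 was a rare transcript, with 2, 4 and 13 reads in C59A, 17, 48 and 34 in C59S and 49, 31 and 43 in WT. It fell by 2.48 ± 0.60 on the log2 scale in C59A (edgeR adjusted p = 0.0337). Of the 50-base stretches of Gsta1 transcripts 46.6% also occur in Gsta2, so reads may be split between the 2 genes. Gsta2, the abundant alpha-class gene beside it, had 160, 61.6 and 271 CPM in C59A, 238, 520 and 394 CPM in C59S and 353, 607 and 401 CPM in WT. Its C59A libraries lay below those of WT, but the difference of -1.47 ± 0.51 did not pass (adjusted p = 0.148). Gsto1, the omega-class enzyme that acts as a thiol transferase, had 33.5, 43.5 and 39.9 CPM in C59A, 50.3, 84.8 and 64.1 CPM in C59S and 58.5, 72.4 and 73.1 CPM in WT, without overlap of C59A with either. It fell by 0.80 ± 0.18 on the log2 scale (adjusted p = 0.0262). Cfap43 on the opposite strand covers all 9821 bases of Gsto1, with 2105 reads over the 9 libraries beside 10715 of Gsto1, so reads may have been shared here too; Cfap43 itself differed by 0.11 (adjusted p = 0.842). The other 17 transferases had log2 fold changes up to 2.26, the value of Gstp3, a rare gene with 22, 10 and 60 reads in C59A and 3, 5 and 13 in WT (adjusted p = 0.0919).

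The alpha and mu classes took different shares of the transferase transcripts in C59A and in WT. Summed over all 22 genes, the level was 1168 ± 186 FPKM in C59A, 1302 ± 204 in C59S and 1335 ± 113 in WT (SD, n = 3 each). The alpha class made up 15.5%, 6.95% and 19.1% of that sum in C59A, 25.7%, 37.9% and 31.3% in C59S and 32.5%, 44.1% and 36.8% in WT. The mu class made up 43.1% ± 6.25 in C59A, 33.8% ± 6.57 in C59S and 27.9% ± 6.12 in WT. Gstm1, the main mu-class gene, had 368 ± 31.3 FPKM in C59A, 295 ± 37.1 in C59S and 248 ± 56.4 in WT, and its log2 fold change of 0.55 ± 0.18 in C59A did not pass (edgeR adjusted p = 0.102). The alpha share of every C59A library was below that of every other library, and no test was made of these shares. The alpha class summed to 167 ± 94.9 FPKM in C59A and 509 ± 122 in WT. Within that class Gsta2 stood at 139 ± 89.9 FPKM in C59A, 324 ± 121 in C59S and 378 ± 112 in WT. Gsta2 thus made up most of the alpha sum, and its own difference did not pass (edgeR adjusted p = 0.148). None of the 3 microsomal transferase genes was called.

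**Figure D2:**
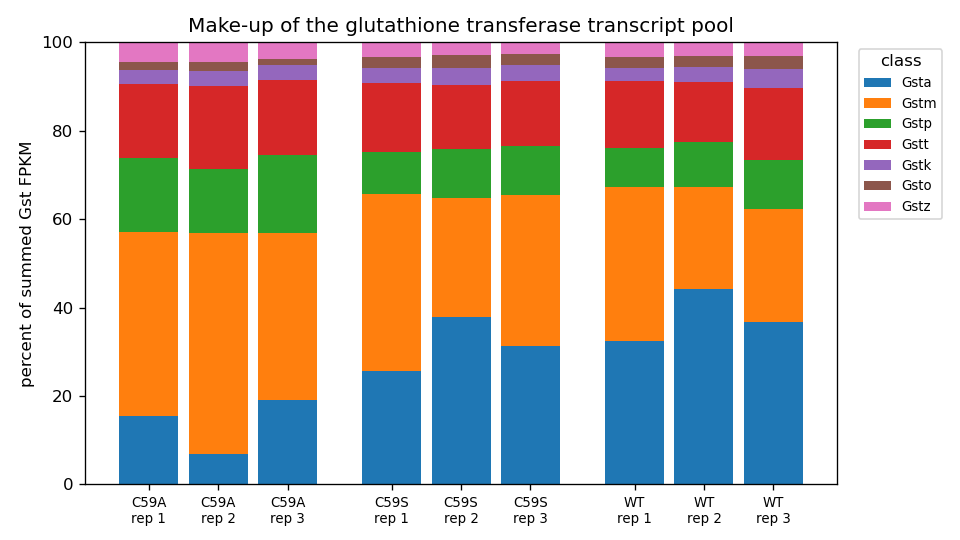
Percent of the summed FPKM of the 22 glutathione transferase genes (vertical axis, 0 to 100) taken by each class in each library, with C59A, C59S and WT from left to right. The alpha class (Gsta, lowest segment) takes 6.95% to 19.1% in C59A, 25.7% to 37.9% in C59S and 32.5% to 44.1% in WT.

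The 10 calls were not equally firm. Hmox1, Nqo1, Gclm and Gsta4 passed under all 23 alternative settings tried, with log2 fold changes of 1.64 to 2.44 for Hmox1, 0.89 to 1.25 for Nqo1, 0.98 to 1.45 for Gclm and -3.09 to -2.69 for Gsta4. The Sod1 and G6pdx calls were lost when any 1 of the 9 libraries was left out (adjusted p 0.0619 to 0.151 and 0.0554 to 0.133), and those of Gss and Txnrd1 in 8 and 7 of those 9 cases (up to 0.135 and 0.151), all but WT replicate 2 for Gss and all but C59A replicate 2 and C59S replicate 1 for Txnrd1. Gsta1 was lost without C59A replicate 1 or 2 (0.117 and 0.0919) and without WT replicate 1 or 3 (0.0988 and 0.0664). Gsto1 was lost without C59A replicate 1 or 3 (0.106 and 0.0832) and without WT replicate 2 or 3 (0.0666 and 0.069). With the summed adipocyte markers as a covariate 5 calls were lost, with Txnrd1 at 0.33 (adjusted p = 0.31), Sod1 at 0.50 (0.179), G6pdx at 0.46 (0.119), Gss at 0.84 (0.0992) and Gsto1 at -0.91 (0.0508). With the mitochondrial share as a covariate all 6 of these less firm calls were lost, at adjusted p of 0.118 for Gss, 0.104 for Txnrd1, 0.0855 for Sod1, 0.169 for G6pdx, 0.0799 for Gsta1 and 0.113 for Gsto1. The plot of fold changes by setting shows these 10 genes.

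**Figure D3:**
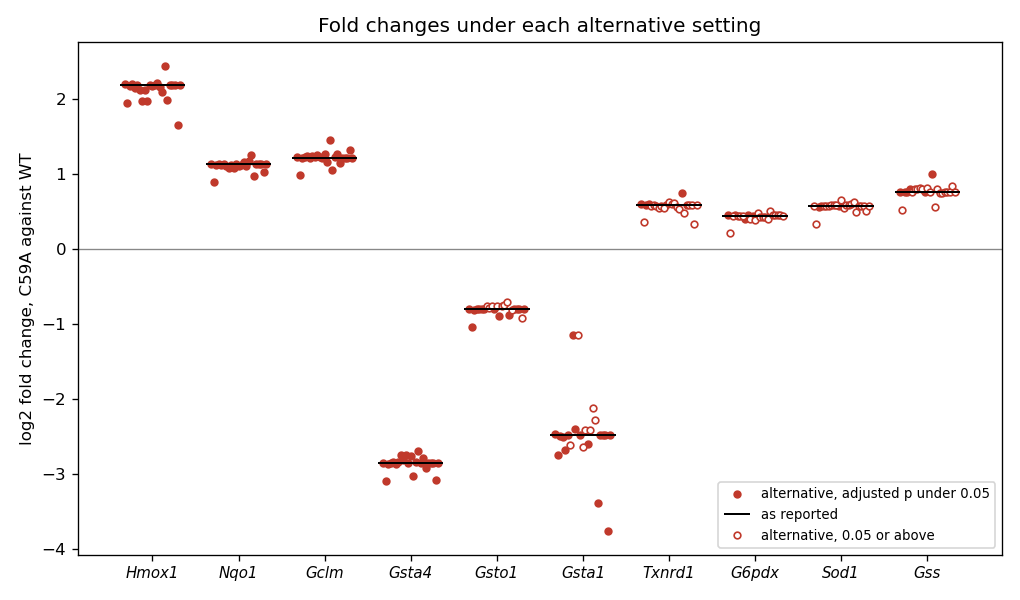
Log2 fold change of C59A against WT (vertical axis) of the 10 called genes as reported (line) and under each of 23 alternative settings (points). Filled points have adjusted p under 0.05, and the points are all filled for Hmox1, Nqo1, Gclm and Gsta4.

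Between C59S and WT no gene was called, among the 45 or among all 17114 (0% of all genes) by edgeR. That count over all genes turned on 1 library and on the filter: edgeR called 737 genes (4.17%) without WT replicate 3 and 308 genes (0.984%) with no filter on low counts, with 0 of the 45 among them in either case. The 45 genes had a median log2 fold change of 0.04 (0.01 over all genes), and 5 of the 45 had an unadjusted p under 0.05, against 18.1% of all genes. DESeq2 called 0 of the 45 and 641 of all genes (3.75%), and limma on FPKM called 0 of either. The 3 C59S libraries lay wholly above WT for 4 genes and wholly below for 4, where 11.2% and 11.3% of all genes did so. The smallest p belonged to Mgst2, a microsomal transferase that can conjugate leukotriene, at 0.745, 1.67 and 2.16 CPM in C59S and 0.547, 0.251 and 0.714 CPM in WT, a difference of 1.55 ± 0.50 at 20 to 37 reads per C59S library (edgeR adjusted p = 0.171). Gsta3, an alpha-class transferase, came next with 28.5, 42.2 and 37.8 CPM in C59S and 52.6, 55.9 and 59.6 CPM in WT. Its C59S libraries all lay below those of WT, by -0.63 ± 0.21 (adjusted p = 0.183). In C59A the same gene had 59.6, 34.2 and 61.0 CPM, which spans the WT range.

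The same-numbered C59S and WT libraries correlated in their deviations, but no pairing is given, and some differently numbered C59A and C59S libraries correlated to a similar degree. With the number as a block in a fit of the 6 C59S and WT libraries 638 genes were called (3.82% of those tested). Among them was 1 of the glutathione and NRF2 genes, Gsta3 (-0.66, adjusted p = 0.041). Gsta4 was lower by -0.45 ± 0.18 in C59S without passing (adjusted p = 0.229). The 95% interval of the C59S difference from WT was -0.34 to 0.72 for Hmox1 and -0.17 to 0.68 for Gclm, so a rise of the size seen in C59A lay outside it for both genes. For G6pdx the interval was 0.09 to 0.59, which holds its C59A rise of 0.44.

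**Figure D4:**
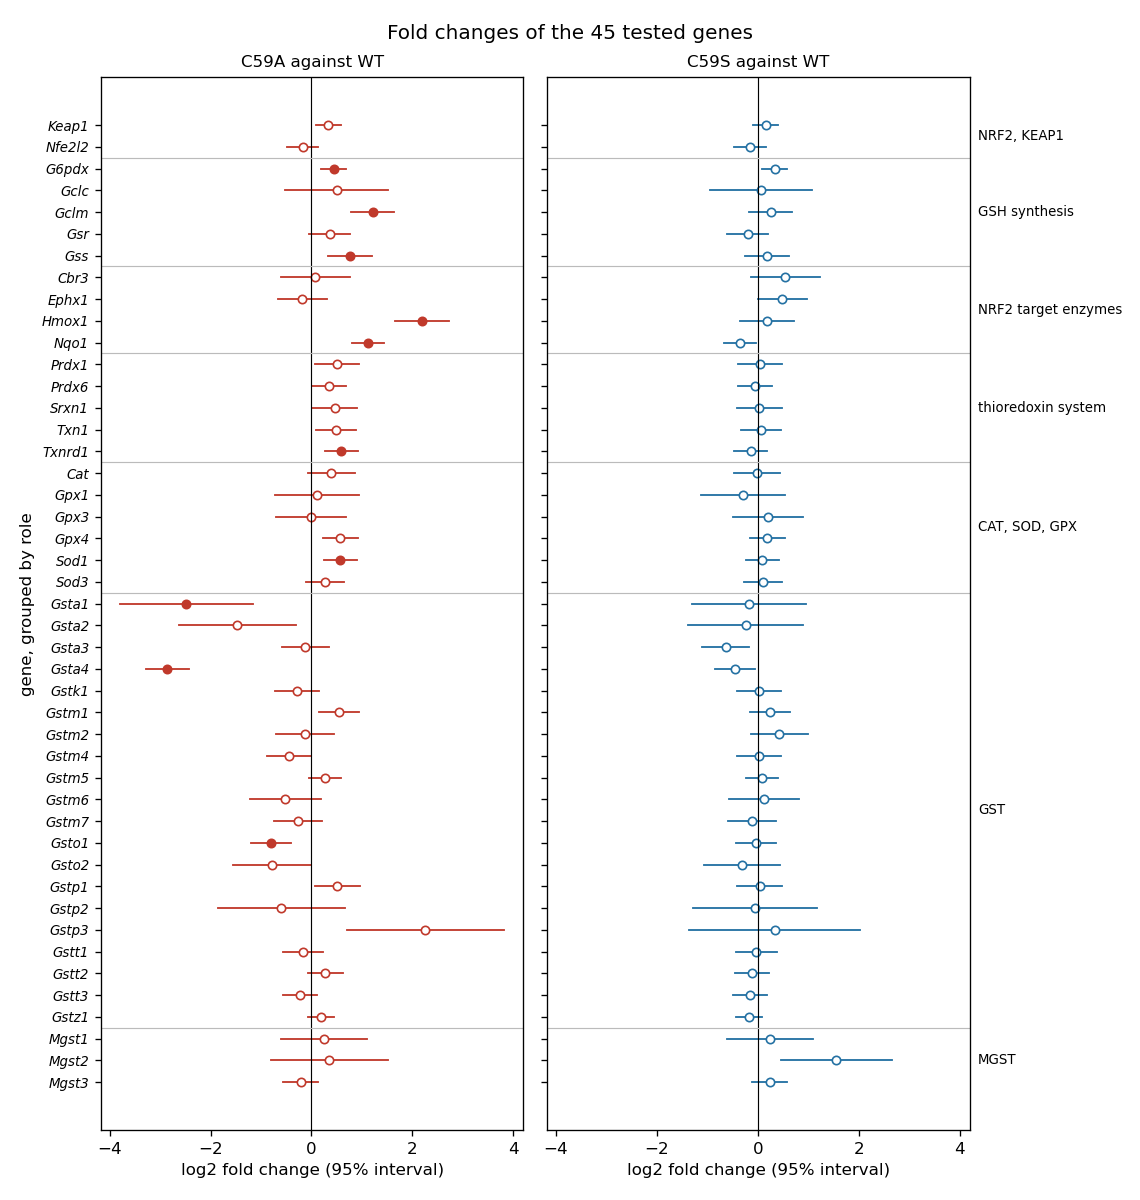
Log2 fold changes (horizontal axes) with 95% intervals of the 45 tested genes, C59A against WT on the left and C59S against WT on the right, grouped by role from top to bottom. Filled points have edgeR adjusted p under 0.05: 10 genes on the left and 0 on the right, where most intervals cover 0.

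Set directly against C59S, C59A was higher for 4 of the 45 genes (Hmox1, Nqo1, Gclm and Txnrd1) and lower for 3 (Gsta4, Gsta1 and Gsto1). These 7 are 15.6% of the genes tested, and 5.91% of all genes were called (3.35% higher and 2.56% lower). The C59A libraries lay wholly above those of C59S for 11 genes and wholly below for 6, and 29.2% of all genes were separated in either direction. This comparison uses the same C59A libraries as the one with WT, so the 2 sets of values are not independent. Gclm differed by 0.96 ± 0.20 (edgeR adjusted p = 0.017), Gsta1 by -2.30 ± 0.61 (0.0479) and Gsto1 by -0.77 ± 0.18 (0.0335). Sod1 (0.48 ± 0.15, adjusted p = 0.0806) and Gss (0.58 ± 0.20, adjusted p = 0.118) did not pass, and G6pdx differed by 0.11 ± 0.11. The calls of Hmox1, Nqo1 and Gsta4 held under every alternative, whereas Gclm was lost without C59A replicate 1 or 3 or C59S replicate 2 or 3 (0.056, 0.0631, 0.0662 and 0.0877). Txnrd1 was lost without C59A replicate 1 or 3 or any C59S library (0.0513 to 0.0812), Gsto1 without C59A replicate 1 or 3 or C59S replicate 2 or 3 (0.0963 to 0.134), and Gsta1 in 6 of the 9 cases, all but WT replicate 2, C59A replicate 3 and C59S replicate 1 (up to 0.16). With the mitochondrial share as a covariate Txnrd1, Gsto1 and Gsta1 were lost too (edgeR adjusted p = 0.0524, 0.064 and 0.0988). The adipocyte covariate also removed the calls of Gsto1 and Gsta1 (0.0626 and 0.0558). C59S replicates 2 and 3 held most of the adipocyte transcripts. With them left out, C59S replicate 1 stood alone for its genotype, so the spread within C59S could not be measured. C59A replicates 1 and 3, with 46.4 and 137 CPM of adipocyte markers, stayed in that fit. Its log2 fold changes of C59A against C59S were 0.73 for Gclm, 0.84 for Txnrd1, -0.37 for Gsto1 and -0.91 for Gsta1.

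Beyond the 48 genes, a list of 98 other genes of glutathione, NRF2 and redox metabolism was read in the same fit. That list too was drawn up with earlier results of these libraries known, so its shares are no independent check of the 48. Of the 93 tested, 13 were higher and 4 lower in C59A than in WT (18.3%, beside 5.7% of all genes). In C59S against WT 0 were called, and 14 had an unadjusted p under 0.05, which 18.1% of all genes reached. DESeq2 called 4 there, and 3.75% of all genes. Against C59S, 12 were higher and 2 lower in C59A (15.1%, beside 5.91% of all genes). Of 19 genes for glutathione breakdown, transport and cysteine supply, 6 were higher in C59A than in WT and 1 was lower. Cbs, cystathionine beta-synthase, which routes homocysteine towards cysteine, had 130, 134 and 121 CPM in C59A, 36.9, 40.5 and 36.1 CPM in C59S and 42.7, 62.8 and 47.9 CPM in WT, a rise of 1.33 ± 0.14 (edgeR adjusted p = 0.000342). The cell surface enzyme gene Ggt1, which starts the breakdown of glutathione, rose by 0.83 ± 0.16 (adjusted p = 0.00986), and Lap3, a cytosolic peptidase that can split cysteinylglycine, by 1.36 ± 0.20 (adjusted p = 0.00289). The export pump gene Abcc4 was the lower one (-1.09 ± 0.23).

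Of 13 partners and regulators of NRF2, 3 rose in C59A over WT, where 3.24% of all genes did. Sqstm1, the p62 protein that draws KEAP1 into autophagy, had 620, 433 and 642 CPM in C59A, 263, 353 and 276 CPM in C59S and 280, 315 and 314 CPM in WT (0.90 ± 0.18, edgeR adjusted p = 0.015). Fbxw11, a ubiquitin ligase subunit of the beta-TrCP family, rose by 0.74 ± 0.15 and Maff, a small MAF protein, by 1.01 ± 0.26 (adjusted p = 0.0171 and 0.045). Bach1, the heme-sensing repressor of Hmox1, differed between C59A and C59S by 0.53 ± 0.12 (higher in C59A, adjusted p = 0.031), and against WT its 0.26 ± 0.12 did not pass. Of 8 genes of NADPH supply, only Me1, malic enzyme, was called, with 254, 231 and 306 CPM in C59A, 96.5, 121 and 109 CPM in C59S and 83.6, 110.0 and 91.6 CPM in WT (1.47 ± 0.16, adjusted p = 0.000333).

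Among other NRF2-linked drug and carbonyl enzymes, Aldh3a2 (0.98 ± 0.17) and Osgin1 (0.70 ± 0.16) were higher in C59A than in WT and Cbr1 (-2.16 ± 0.36) and Ugt1a6a (-2.45 ± 0.38) were lower (edgeR adjusted p = 0.00633, 0.0224, 0.00838 and 0.00438). Msrb1, a methionine sulfoxide reductase, was higher (1.23 ± 0.30, adjusted p = 0.0461). Nox4, the NADPH oxidase of the renal tubule that makes hydrogen peroxide, had 185, 107 and 246 CPM in C59A, 286, 451 and 381 CPM in C59S and 370, 507 and 468 CPM in WT (-1.32 ± 0.28, adjusted p = 0.0221). None of the 7 heme and iron genes passed against WT, among them the ferritin genes.

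Libraries of one genotype also differed among themselves in these genes. C59A replicate 3 had the highest CPM of its genotype for 32 of the 45 genes and replicate 2 the lowest for 26. In C59S, replicate 1 was lowest for 30 genes, and in WT replicate 1 was lowest for 27. The ratio of the highest to the lowest library had a median of 1.41 in C59A, 1.34 in C59S and 1.34 in WT, and it exceeded 2 for 7, 9 and 4 genes. C59A replicate 2 also had the lowest proximal tubule sum of its genotype (12313 CPM) and the highest sums for the thick ascending limb (2236 CPM) and the collecting duct (963 CPM). The part of that difference in the spread of these genes was not tested.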

How the data were processed

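Per the submitters' processing notes, the tools were featureCounts 1.5.0-p3, HISAT2 2.0.5, fastp, CASAVA 1.8 and DESeq2 1.20.0, with build GRCm38; the strand setting is not given in the sources used here. Per the labels, libraries were made with the NEBNext Ultra kit from TRIzol RNA. The deposited counts are raw whole numbers. The deposited FPKM equal the counts over gene length and 1 constant per library (0.802 to 1.15 times its total).

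Counts were filtered with filterByExpr, scaled by TMM and fitted in 1 model of 9 libraries with edgeR 4.0.16 in R 4.3.3 (robust quasi-likelihood test). P-values were Benjamini-Hochberg adjusted over 17114 genes and called under 0.05. SE is the log2 fold change over the square root of F. A floor of 3 counts was 0.112 to 0.202 CPM, covering counting error only. No libraries were duplicates (chi-square per degree of freedom 22.4 to 123). The procedure was tested on simulated counts.

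Same-numbered C59S and WT libraries correlated in their deviations (0.318, 0.195 and 0.256), and differently numbered ones lay at 0.0085 or less. Differently numbered C59A and C59S libraries reached 0.294 and 0.248, so correlations of this size do not establish a pairing. The labels give none. Same-numbered C59A and WT libraries lay at -0.0944 to 0.0491.

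Values are given for each called gene, Nfe2l2, Keap1, the 5 genes of highest FPKM, the 5 of smallest p in a comparison without calls, and up to 3 called genes per pathway sublist. Slc7a11, Gclc, Gsr, Gsta2, Gstm1, Gstp3, Ephx1, Cbr3 and Acss2 were named after their values were seen. The genes and lists were chosen with earlier results of these data known. Promoter sequences are RefSeq's, and 50-base stretches were compared over GENCODE M21 transcripts.

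Alternatives were RLE factors, library totals, no filter, DESeq2 1.42.0, a replicate block, only the groups compared, limma 3.58.1 on log2(FPKM + 1) or log2(FPKM + 0.1) (mean FPKM 0.5 or more, or unfiltered), mitochondrial genes left out or their share as a covariate, and each library left out. An adipocyte covariate and leaving out C59S replicates 2 and 3 were added after seeing the data.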

Additional observations from a re-analysis of the deposited data

How the results depend on the processing

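Of 45 genes, 10 were called between C59A and WT, where 5.7% of all genes were. The count was 13 with DESeq2 (9.43% of all genes), 11 with no filter (3.77%), 10 with mitochondrial genes left out (5.53%) and 9 with RLE factors (5.55%). With the replicate block in all libraries it was 7 (5.87%). Limma at a pseudocount of 1 (4.92%) or 0.1 (4.81%) FPKM gave 6. The count was also 6 with library totals alone (6.3%), with only the groups compared (4.6%) and with the adipocyte covariate (3.96%). It was 4 with limma and no filter (1.31%) or the mitochondrial covariate (2.54%), 5 with the replicate block in the groups compared (2.36%), and 4 to 8 with 1 library left out (2.85% to 5.32%). Between C59A and C59S (7 called, 5.91%) it was 11 with DESeq2 (10.3%) and 4 with that block (2.03%) or the mitochondrial covariate (3.02%). It was 3 there with limma and no filter (0.888%), and 3 to 9 with 1 library left out (1.8% to 7.4%). Between C59S and WT (0 called, 0%) it was 1, Gsta3, with the block (3.82%) and with the adipocyte covariate (0.146%), and 0 to 0 with 1 library left out (0% to 4.17%). In a fit of all libraries the replicate block changed the calls of G6pdx, Sod1 and Txnrd1 (C59A against WT) and of Gsta1 (C59A against C59S). No other call of a named gene changed, and no pairing by number is given.

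The same shares of all genes stand beside the counts of other pathway genes. These numbered 17 in C59A against WT, 4 with the block, 7 with limma and no filter, 8 with the mitochondrial and 10 with the adipocyte covariate, and 9 to 16 with 1 library left out. In C59S against WT (0) they numbered 1 without a filter (0.984%), 4 with DESeq2 (3.75%) or the block, 2 with the adipocyte covariate, and 0 to 5 with 1 library left out (5 without WT replicate 3). In C59A against C59S (14) they numbered 23 with DESeq2, 7 with the block, 6 with limma and no filter, and 5 to 17 with 1 library left out.

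The median log2 fold change of the 45 genes (0.26 in C59A against WT) was 0.019 with library totals alone, a scaling under which all genes had a median of -0.26, and 0.083 with the adipocyte covariate. In C59S against WT (0.04) these gave -0.16 (all genes -0.19) and -0.25, and -0.17 without C59S replicates 2 and 3. With 1 library left out it lay between 0.14 and 0.29 in C59A against WT, between -0.09 and 0.13 in C59S against WT and between 0.09 and 0.25 in C59A against C59S. The causes were not tested.

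Signs turned only for values that had not passed. With library totals alone, C59S against WT gave -0.014 for Gpx3, -0.00699 for Gpx4, -0.025 for Hmox1, -0.0500 for Keap1, -0.10 for Sod1 and -0.12 for Txn1, and C59A against WT gave -0.13 for Gpx1. With the adipocyte covariate, C59S against WT gave -0.51 for Gpx3, -0.0501 for Gpx4, -0.52 for Hmox1, -0.0127 for Sod1 and -0.24 for Txn1, C59A against WT gave -0.67 for Gpx1 and -0.0887 for Mgst2, and C59A against C59S gave 0.0071 for Nfe2l2. Without C59S replicates 2 and 3, C59S against WT gave -0.15 for Gpx3, -0.0414 for Gpx4, -0.0846 for Hmox1 and -0.068 for Txn1, and C59A against C59S gave 0.14 for Gpx3 and 0.0285 for Nfe2l2. Gpx3 in C59A against WT was 0.00317 with RLE factors and with DESeq2, and Gsto1 in C59S against WT was 0.0288 with the mitochondrial covariate.

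With 1 library left out, C59A against WT ran from -0.30 to 0.21 for Gpx3, from -0.11 to 0.33 for Gpx1 and from -0.26 to 0.11 for Gsta3. C59S against WT ran from -0.0585 to 0.12 for Txn1, from -0.25 to 0.13 for Gsto1, from -0.0189 to 0.42 for Gss, from -0.69 to 0.0251 for Gpx1 and from -0.44 to 0.24 for Gsta1. C59A against C59S ran from -0.51 to 0.00028 for Gpx3 and from -0.14 to 0.0469 for Nfe2l2.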
